A study of Mus musculus with 12 samples.

Results

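The Schlafen genes are a family that lies side by side in 1 cluster on mouse chromosome 11. The 6 members described here, Slfn1, Slfn2, Slfn4, Slfn5, Slfn8 and Slfn9, were chosen by symbol out of 48526 genes in the count table, and all 6 were found. They were followed in microglia, the resident macrophages of the central nervous system, sorted from the spinal cord of Biozzi ABH mice. This strain is used for its relapsing course of experimental autoimmune encephalomyelitis (EAE), an induced autoimmune inflammation of the brain and spinal cord. The 12 libraries fell into 4 groups of 3 mice: control mice, and mice with chronic-relapsing EAE (crEAE) in the acute phase, in remission or in the chronic phase. Cells of every group were gated as CD11b positive, CD45 intermediate and Ly-6C negative. The labels give no age, immunisation protocol or day of sampling and do not say whether control mice received an adjuvant. Replicate numbers only name libraries and pair no mice.

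Schlafen proteins take their name from the German word for sleep, because the first members were found as brakes on the growth of thymocytes. All share a core domain, and the long members, among them Slfn5, Slfn8 and Slfn9, also carry a helicase-like region. Several mammalian Schlafen proteins bind or cleave transfer RNA. Many Schlafen genes are induced by type I interferons, which signal through the receptor chains Ifnar1 and Ifnar2 to the transcription factors that include Stat2 and Irf9. The family is best known in lymphocytes, monocytes and macrophages.

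Levels are given as CPM, the count of a gene relative to the library's size after scaling with the trimmed mean of M values (TMM), and per kilobase (kb) of exon where genes are compared with each other. Libraries held 3992885 to 5712376 counts, of which 1266782 to 2496096 lay outside the 6 most abundant features and the mitochondrial genes. Acute libraries stood apart in their cell type markers, in part against the sort. The 10 monocyte markers summed to 1511 to 2249 CPM in acute libraries, against 6.7 to 42.3 in the others, and all 10 were called higher in acute than in control mice. Ly6c2, a gene of the antigen that the gate excluded, had 0 counts in control mice and 64.6 ± 19 CPM in acute mice (SD, n = 3). The 8 microglial markers summed to 942 to 1650 CPM in acute libraries, against 4039 to 6673 in the others, and all 8 were called lower in acute than in control mice. Neutrophil markers without Csf3r, which the other groups expressed too, summed to 117 to 384 CPM in acute libraries, to 51.9 in remission replicate 1, to 11.2 in chronic replicate 3 and to at most 1.91 elsewhere. Csf3r itself went the other way and was called lower in acute than in control mice, at 141 ± 21.1 against 394 ± 56 CPM (log2 fold change -1.49 ± 0.14). With Csf3r the neutrophil sums overlapped, at 268 to 540 CPM in acute and 348 to 457 in control libraries. T and NK cell markers summed to 60.5 to 98.3 CPM in acute libraries and to at most 36.3 elsewhere. In control mice Il7r alone averaged 28.5 CPM, and 7 of these 10 markers had no count. Il7r was lower in acute mice (log2 fold change -0.85 ± 0.30). Border macrophage markers reached 11.2 CPM, B cell markers 5.58 and dendritic cell markers 23.4 in any library. Mitochondrial genes took 5.18 to 5.74% of counts in acute libraries and 1.92 to 4.36% in the others. The part of these cells and of the mitochondrial share in the results below was not tested. In such bulk libraries, fewer cells of a type and less RNA per cell cannot be told apart. A change within microglia and a change in the make-up of the sorted cells cannot be told apart either.

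**Figure D1:**
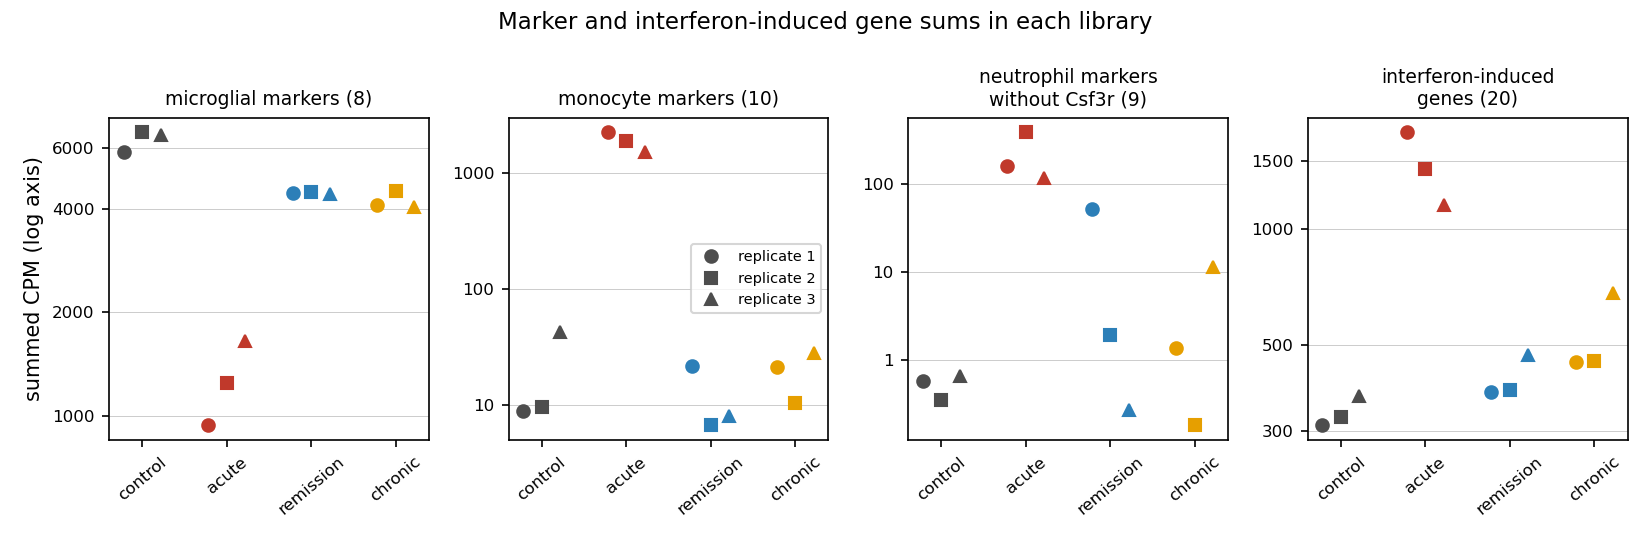
Summed CPM (log axis) of 8 microglial, 10 monocyte, 9 neutrophil (Csf3r left out) and 20 interferon-induced genes in each library by group, with a symbol for each replicate. Acute libraries lie at 1511 to 2249 CPM for monocyte markers and at 942 to 1650 CPM for microglial markers, outside the range of the other groups in both.

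All 6 Schlafen genes were higher in the cells sorted from acute mice than in those from control mice. Slfn1 and Slfn4 went from almost no counts to a mean of 46.2 and 38.7 CPM, Slfn5 rose most among the genes that control mice already expressed, and Slfn8 rose least. Counts were compared with edgeR's quasi-likelihood test over 12545 genes, and a gene was called at a Benjamini-Hochberg adjusted p under 0.05. All 6 members were called higher and none lower, where 23.7% of all genes tested were called higher and 20.0% lower. The members' median log2 fold change was 4.04, against 0.02 over all genes tested. Slfn1 and Slfn4 passed the filter on low counts only because of the acute libraries. The count and the median, and the counts called against acute mice below, therefore describe the family and do not support a difference. The adjusted p values of Slfn1 and Slfn4 in comparisons with acute mice are likewise descriptive.

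**Figure D2:**
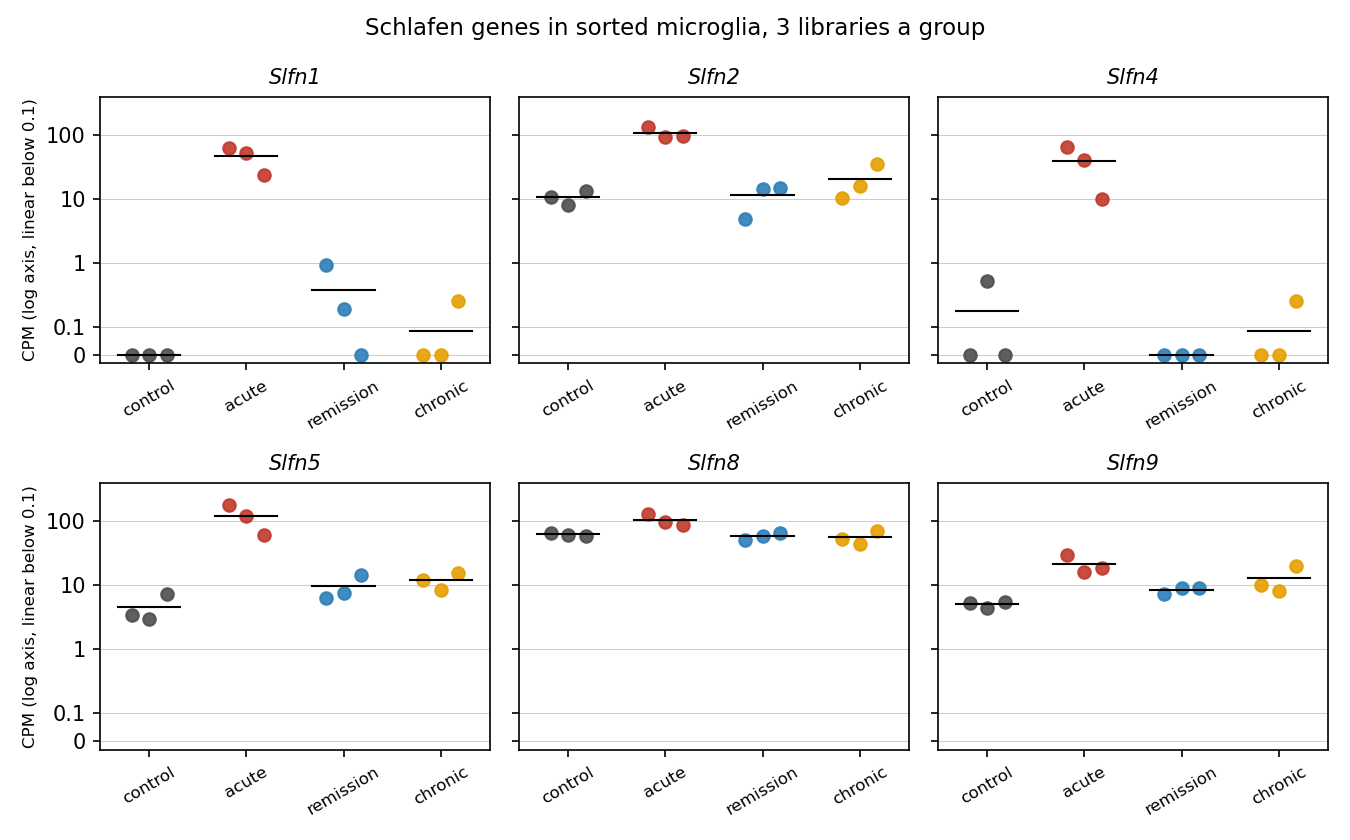
CPM of the 6 Schlafen genes in each library (log axis, linear below 0.1) by group, 1 point a library and a line at the group mean. Slfn1 and Slfn4 lie at 10.1 CPM or more in acute libraries and below 1 CPM in the 9 other libraries.

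The short member Slfn1, a growth brake of thymocytes in mice, had no count in any control library and was expressed in every acute one. Its gene (ENSMUSG00000078763) lies on the plus strand of chromosome 11 from 83116849 to 83122670 (GRCm38). It had 0 counts in the 3 control libraries and 62.5, 52.5 and 23.7 CPM in acute replicates 1 to 3. Remission libraries held 0.923, 0.191 and 0 CPM, and chronic libraries 0, 0 and 0.255. The lowest acute library thus stood well above the highest library of the other groups. With the control group set to a floor of 3 counts over its 3 libraries, which is 0.173 CPM, acute mice were at least 273-fold higher (adjusted p 5.44e-07). As Slfn1 passed the filter only through the acute libraries, this p describes and does not support a difference. Remission libraries together held 6 counts and control libraries none, which is at least 2.41-fold and was not called (adjusted p 0.236). Of these 6 counts, 5 came from remission replicate 1, the library with the highest neutrophil marker sum outside the acute group. The digit in its title also differed from that of the other remission libraries.

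Slfn2 (ENSMUSG00000072620, plus strand, 83065112 to 83070678) is the other short member. In mice it is needed to keep T cells and monocytes quiescent, and a mutation in it makes them die on activation. Control libraries held 10.8, 8.06 and 13.4 CPM, acute libraries 132, 92.4 and 95.1, remission libraries 4.8, 14.3 and 14.9 and chronic libraries 10.2, 15.8 and 35.7. Acute libraries lay above all others, and the remission and chronic ranges overlapped that of the controls. Slfn2 rose from 10.7 ± 2.66 to 106 ± 22 CPM, a log2 fold change of 3.32 ± 0.49 (SE, adjusted p 0.000459). Chronic mice averaged 20.6 ± 13.4 CPM, and the difference from control mice was not called (log2 fold change 0.92 ± 0.51, adjusted p 0.303).

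Slfn4 (ENSMUSG00000000204, plus strand, 83175186 to 83190216) belongs to the intermediate members and is known to rise in mouse macrophages during activation. Acute libraries held 65.1, 41 and 10.1 CPM. Control libraries held 0, 0.526 and 0 CPM, chronic libraries 0, 0 and 0.255, and remission libraries no count. The acute group therefore did not overlap the others, although its lowest library stood well below its other two. Pooled over the group, 439 acute and 3 control counts gave a ratio of 231, with an exact 95% interval of 78.7 to 1127 that covers counting error only (edgeR adjusted p 0.00063). This gene too passed the filter only through the acute libraries, so its p describes and does not support a difference. Slfn4 shares 3.12% of its 75-base words with other genes, mostly Gm11427, and summed with its neighbour Slfn3 it gave a log2 fold change of 6.52 ± 0.97 (adjusted p 0.000455). Acute replicate 3, with the least Slfn4 and Slfn1, was also the library with the lowest monocyte sum, 1511 CPM, and the highest microglial sum, 1650 CPM, of its group. The digit in its title also differed from that of the other acute libraries. With this digit as covariate the log2 fold change of Slfn4 from control to acute mice was 7.02 ± 0.75, against 7.61 ± 1.07 without it.

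Slfn5 (ENSMUSG00000054404, plus strand, 82951349 to 82964840) is a long member whose human counterpart is induced by type I interferon. Control libraries held 3.41, 2.98 and 7.34 CPM, acute libraries 181, 120 and 59.9, remission libraries 6.28, 7.65 and 14.6 and chronic libraries 11.8, 8.28 and 15.6. Acute libraries lay above all others, and chronic libraries lay just above the control range without overlapping it. From control to acute mice Slfn5 rose from 4.58 ± 2.4 to 120 ± 60.5 CPM, with a log2 fold change of 4.77 ± 0.54 (adjusted p 6.92e-05). Chronic mice averaged 11.9 ± 3.64 CPM, and the difference from control mice was not called (1.40 ± 0.60 on the log2 scale, adjusted p 0.168). A fit to these 2 groups alone did call it (adjusted p 0.0115). Of the 75-base words of Slfn5, 8.22% also occur in other genes, mostly Slfn5os, an antisense gene that overlaps it. Slfn5os had no count in any library, and since the libraries keep no strand, its reads and those of Slfn5 cannot be told apart.

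Slfn8 (ENSMUSG00000035208, minus strand, 83002158 to 83020810) is a long member, and mice that lack it have been reported to develop milder EAE. It had the highest level per kilobase of exon of the members in control mice. Control libraries held 65.3, 61.9 and 59.1 CPM, acute libraries 132, 96.2 and 86, remission libraries 50.8, 58.5 and 65.9 and chronic libraries 52.9, 43.8 and 70.1. Its acute libraries lay above all others. The log2 fold change from control to acute mice was 0.75 ± 0.17 (adjusted p 0.00139). Scaled by library totals alone, which moved the median of all genes to -0.53, it was 0.19 ± 0.18 and was no longer called (adjusted p 0.379).

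Slfn9 (ENSMUSG00000069793, minus strand, 82978390 to 82991830), the long neighbour of Slfn8, was the one member called higher in chronic mice. The control libraries gave 5.26, 4.38 and 5.39 CPM, the acute ones 29.6, 16.3 and 18.7, those of remission 7.2, 8.99 and 9.03 and the chronic ones 10.2, 8.1 and 20.1. All libraries with crEAE lay above all control libraries, and chronic replicate 3 lay within the acute range. It rose 2.10 ± 0.31 on the log2 scale in acute mice (adjusted p 1.95e-05) and 1.33 ± 0.32 in chronic mice (adjusted p 0.00692). The chronic call was lost without chronic replicate 3 (0.86 ± 0.30, adjusted p 0.0695). Slfn8 and Slfn9 share 6.99% and 5.9% of their 75-base words with other genes, mostly the pseudogene Slfn10-ps. With the counts of Slfn8, Slfn9 and Slfn10-ps summed, the sum rose 0.96 ± 0.19 in acute mice (adjusted p 0.000539) and changed by -0.01 ± 0.19 in chronic mice (adjusted p 0.992), a sum in which Slfn8 held most of the counts.

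**Figure D3:**
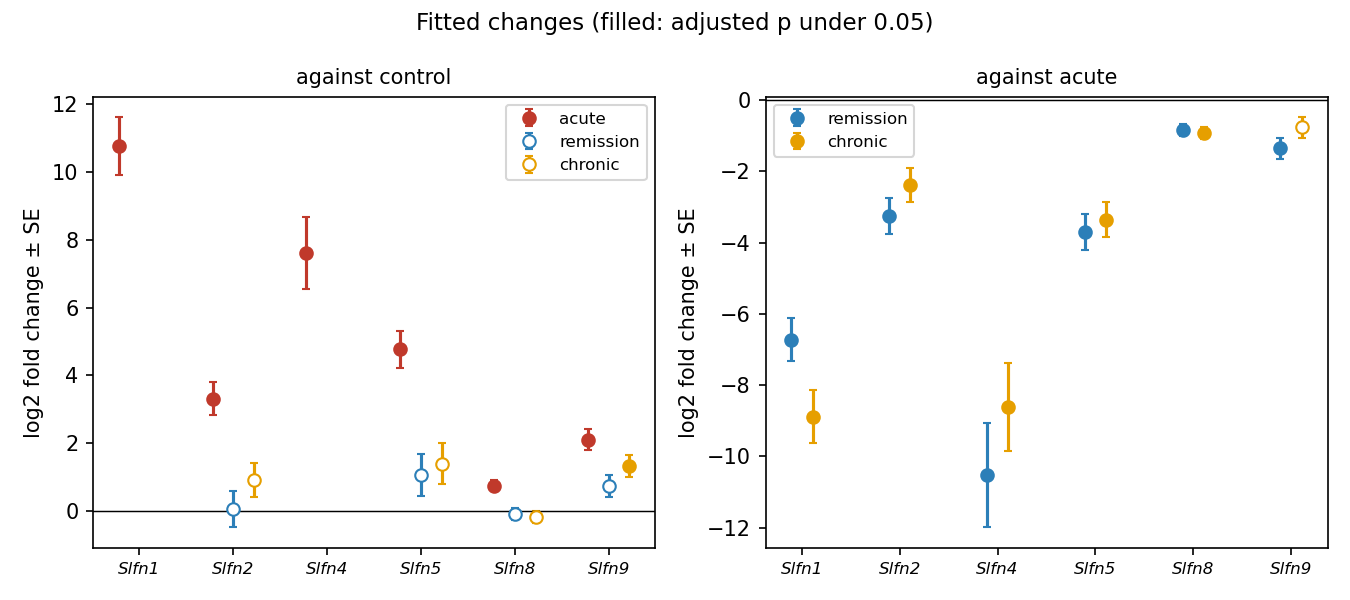
Fitted log2 fold changes with SE for the 6 genes, against control (left) and against acute (right), filled where the adjusted p was under 0.05. Slfn1 and Slfn4 in remission and chronic mice, where their groups held at most 6 counts, are left out against control, and fitted values of both genes depend on the small count added to groups near 0. Against control all 6 genes are filled in acute mice and only Slfn9 in chronic mice, at 1.33. Against acute all 6 genes are filled in remission mice and all but Slfn9 in chronic mice.

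In remission all 6 genes were lower than in acute mice, and none was called against control mice. This holds where 6.06% of genes tested were called higher than in control mice and 3.25% lower. Slfn9 had the smallest unadjusted edgeR p of the members, 0.0369, and without the filter on low counts Slfn1 was called (adjusted p 0.04). DESeq2 called none. Against acute mice, 19.4% of genes tested were called lower in remission, the 6 members among them. Slfn4 was at least 192-fold lower (adjusted p 0.000826), a call that was lost with limma-voom (0.0572) and in a fit to the 2 groups alone (0.0776). Slfn1 was lower by a pooled ratio of 113 (exact 95% interval 51.7 to 310, which covers counting error only). The log2 fold changes of Slfn5 and Slfn2 were -3.71 ± 0.50 and -3.26 ± 0.50 (adjusted p 0.000335 and 0.000774). Slfn9 was lower by 2.57-fold and Slfn8 by 1.8-fold (adjusted p 0.00148 and 0.000749).

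In chronic mice 1 member, Slfn9, was called higher than in control mice, where 9.57% of genes tested were called higher and 5.17% lower. Slfn2 in chronic replicates 2 and 3, at 15.8 and 35.7 CPM, lay above the control range, while replicate 1 lay within it. Chronic replicate 3 had the highest Slfn2, Slfn5, Slfn8 and Slfn9 of its group. It also had the highest sum of interferon-induced genes of the chronic libraries, 681 CPM. The same held for its monocyte sum, 27.8 CPM, and its neutrophil sum without Csf3r, 11.2 CPM. With Csf3r its neutrophil sum was the lowest of the chronic libraries, 301 CPM. Against acute mice 5 of 6 members were called lower, where 15.5% of genes were. The log2 fold changes were -3.36 ± 0.49 for Slfn5, -2.39 ± 0.47 for Slfn2 and -0.92 ± 0.17 for Slfn8 (adjusted p 0.00072, 0.00447 and 0.000493). Without chronic replicate 3, that of Slfn2 was -3.01. Slfn1 and Slfn4, with 1 count each in the chronic group, were lower by pooled ratios of 655 and 555. Their exact 95% intervals, of 117 to 25908 and 99.1 to 21964, cover counting error only. The call of Slfn4 was lost with limma-voom (adjusted p 0.0798). Slfn9 was 1.71-fold lower in chronic than in acute mice and was not called (log2 fold change -0.77 ± 0.29, adjusted p 0.054). It was called in some alternative settings: with size factors of DESeq2 (adjusted p 0.0493), no filter (0.0238) or limma-voom (0.0123), without acute replicate 2 (0.0394) and without chronic replicate 3 (0.00218). The log2 fold change of Slfn9 was -1.23 without chronic replicate 3, -0.51 without chronic replicate 2 and -0.46 without acute replicate 1. The sum of Slfn8, Slfn9 and Slfn10-ps was called lower (edgeR adjusted p 0.00105), but Slfn8 held most of its counts.

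No member was called between chronic and remission mice, where 0.941% of all genes tested were called higher and 0.263% lower. The smallest unadjusted edgeR p was 0.0708, for Slfn9, and DESeq2 called none. Slfn9 was nearest, at 12.8 ± 6.43 against 8.41 ± 1.05 CPM (log2 fold change 0.59 ± 0.31, adjusted p 0.369), and Slfn2 stood at 20.6 ± 13.4 against 11.3 ± 5.67 CPM (0.86 ± 0.52, adjusted p 0.475). The spread among chronic libraries was the larger one in both genes.

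The make-up of the family changed between groups, as a description per kilobase of exon. In control mice Slfn8 led with 15.2 ± 0.755 CPM per kb, and Slfn2 followed with 6.46 ± 1.6. Slfn9 at 0.84 ± 0.0924 and Slfn5 at 0.723 ± 0.379 did not differ beyond their spread, and Slfn4 and Slfn1 stood at 0.0442 ± 0.0766 and 0. In acute mice Slfn2 led with 64 ± 13.2 CPM per kb. Slfn8 at 25.6 ± 5.91, Slfn1 at 24.8 ± 10.8 and Slfn5 at 19 ± 9.56 overlapped in their spread, followed by Slfn4 at 9.77 ± 6.96 and Slfn9 at 3.6 ± 1.19. The share of Slfn8 in the summed level of the 6 genes was 65.6 ± 6.16% in control mice and 17.7 ± 1.79% in acute mice, while Slfn1, which had no count in control mice, took 16.5 ± 4.16%.

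In remission and chronic mice Slfn8 again held the largest share in every library but 1. It took 60.1 ± 7.69% in remission and 47.4 ± 9.36% in the chronic phase. In chronic replicate 3 Slfn2 led with 48.1% against 38.4% for Slfn8. The summed level was 23.2 ± 1.72 CPM per kb in control mice, 147 ± 44.9 at the acute stage, 24.2 ± 5.6 at remission and 30.1 ± 12.6 at the chronic stage. The share of Slfn9 was 3.45 to 3.7% in control libraries and 5.25 to 7.57% in the 6 remission and chronic libraries, so the ranges did not overlap.

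**Figure D4:**
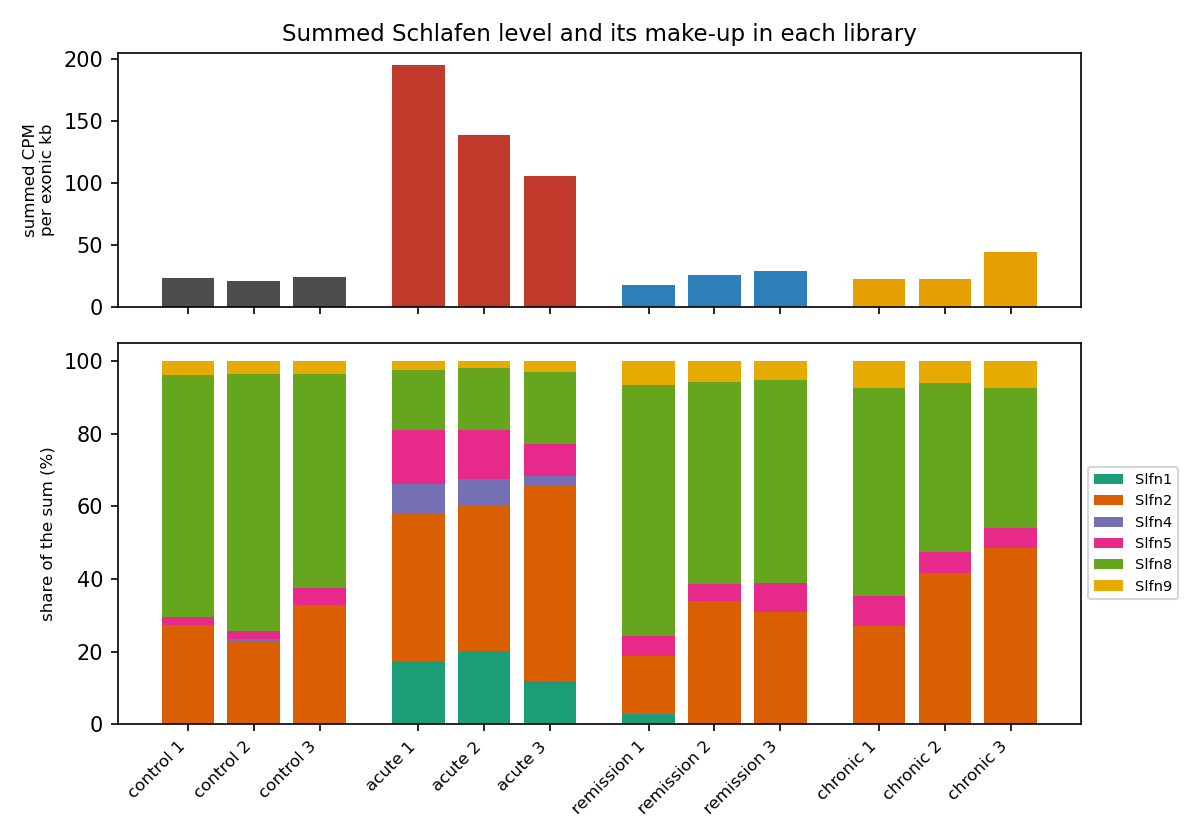
Sum of the 6 Schlafen genes in CPM per kilobase of exon (top) and the share of each gene in that sum (bottom) in each library. Acute libraries reach 106 to 195 CPM per kb against at most 44.6 elsewhere, and the share of Slfn8 falls from 58.9% or more in control libraries to 19.8% or less in acute libraries.

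The genes lie in 1 cluster of 335.4 kb on chromosome 11, from 82951349 to 83286726 (GRCm38), in the order Slfn5, Slfn9, Slfn8, Slfn10-ps, Slfn2, Slfn1, Slfn4, Slfn3 and Slfn14. Slfn3 and Slfn10-ps, which lie in the cluster but outside the chosen 6, were also called higher in acute than in control mice. Slfn3, an intermediate member next to Slfn4, stood at 0.306 ± 0.359 CPM in control and 6.13 ± 4.4 in acute mice (log2 fold change 4.28 ± 0.90, adjusted p 0.000727) and at 0.28 ± 0.287 and 0.605 ± 0.64 in remission and chronic mice. Slfn10-ps, a transcribed pseudogene, rose from 2.7 ± 0.383 to 9.09 ± 4.31 CPM (1.76 ± 0.45, adjusted p 0.00305). Slfn14 had no count in any library, which allows at most 0.173 CPM in control and 0.273 CPM in acute mice at 3 counts a group. Slfnl1, a Schlafen-like gene on chromosome 4, held 19 counts in control and 4 in acute mice (1.11 ± 0.562 and 0.371 ± 0.323 CPM). The pooled ratio was 3 with the acute group lower, and its exact 95% interval of 0.998 to 12.1 covers counting error only.

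Genes on either side of the cluster did not share the size of these changes. Of 9 protein-coding genes followed there, 4 had enough counts to test. Rffl, a ubiquitin ligase gene, stood at 55.2 ± 1.73 CPM in control and 44.5 ± 0.993 in acute mice (log2 fold change -0.31 ± 0.12, adjusted p 0.0485). Ap2b1, which encodes a subunit of the clathrin adaptor complex, rose from 70.1 ± 4.59 to 93.5 ± 4.55 CPM (0.42 ± 0.12, adjusted p 0.00777). The call of Rffl was lost in 11 of 22 alternative settings, and the change of Ap2b1 turned to -0.14 with library totals alone. With TMM scaling the change of each of these 4 flanking genes was smaller than that of Slfn8, the least changed member. With library totals alone Rffl was at -0.87 and Slfn8 at 0.19, against -0.53 for the median gene.

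**Figure D5:**
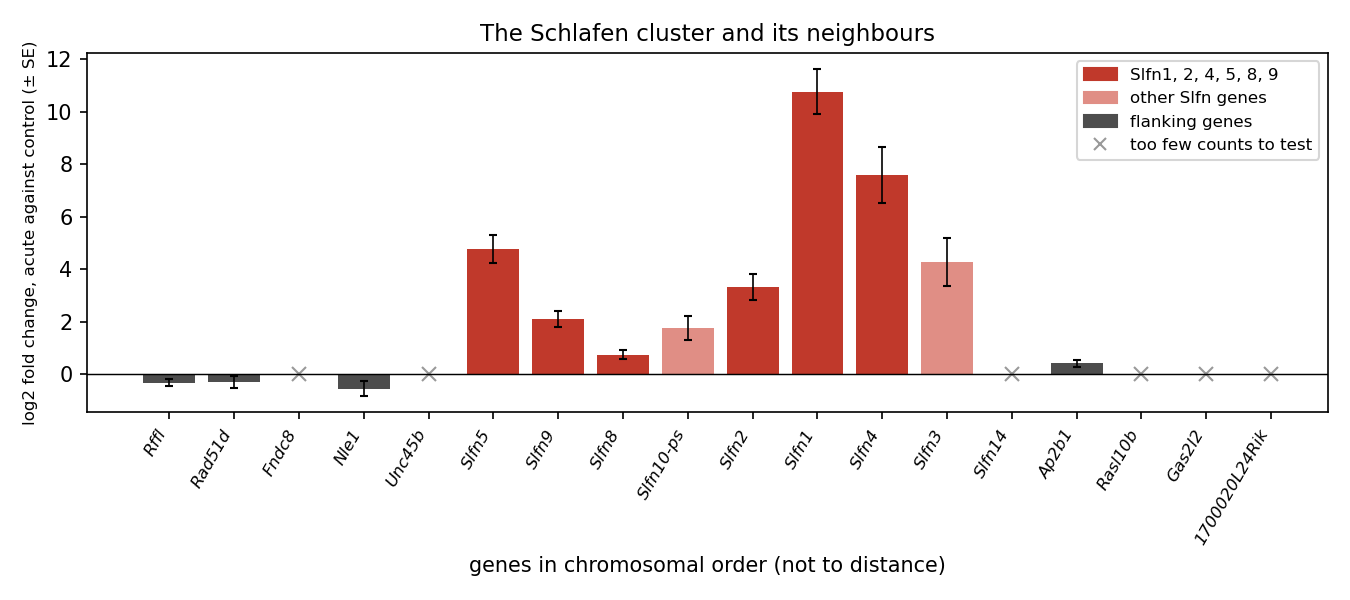
Log2 fold change with SE from control to acute mice for the Schlafen genes and 9 protein-coding genes that flank them, in chromosomal order and not to distance. Members lie between 0.75 (Slfn8) and 10.77 (Slfn1, whose fitted value depends on the small count added to the control group at 0), and flanking genes between -0.54 and 0.42.

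The promoter sequences of the 6 members are shown because the genes moved together in acute mice while differing in size. They were read from RefSeq (GRCm38.p6), which held all 6 symbols, over 250 bases before the start site. The first of 2 entries of Slfn8 was used. The stretch just before the start is printed 5′ to 3′ on the strand of the gene. Capitals in Slfn1, Slfn4 and Slfn2 mark an 11-base word that the 3 promoters share, ACTTCCTGGAG, and in Slfn2 also the 4 bases before it, which complete a match to a combined ETS and interferon regulatory factor motif (GGAA, any pair of bases, GAAA, on the opposite strand). In Slfn5, Slfn8 and Slfn9 capitals mark a match to the core of the interferon-stimulated response element (GAAA, any pair of bases, GAAA). The match reads on the strand of the gene in Slfn5 and on the opposite strand in Slfn8 and Slfn9.
Slfn1: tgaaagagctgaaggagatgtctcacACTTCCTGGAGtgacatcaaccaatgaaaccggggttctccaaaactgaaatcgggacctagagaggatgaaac
Slfn4: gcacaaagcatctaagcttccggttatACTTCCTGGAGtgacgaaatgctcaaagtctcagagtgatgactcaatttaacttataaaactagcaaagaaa
Slfn2: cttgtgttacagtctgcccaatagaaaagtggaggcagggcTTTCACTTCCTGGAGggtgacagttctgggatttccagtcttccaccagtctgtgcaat
Slfn5: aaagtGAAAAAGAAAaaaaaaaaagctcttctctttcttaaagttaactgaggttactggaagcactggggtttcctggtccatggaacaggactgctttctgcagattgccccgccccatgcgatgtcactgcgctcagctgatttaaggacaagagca
Slfn8: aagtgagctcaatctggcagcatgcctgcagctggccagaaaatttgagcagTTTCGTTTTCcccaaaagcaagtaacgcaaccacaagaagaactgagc
Slfn9: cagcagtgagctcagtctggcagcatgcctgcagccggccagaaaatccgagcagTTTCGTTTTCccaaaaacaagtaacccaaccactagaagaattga

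These stretches lie on chromosome 11 at chr11:83116720-83116819 for Slfn1, chr11:83175086-83175185 for Slfn4, chr11:83065012-83065111 for Slfn2 and chr11:82951942-82952101 for Slfn5, all on the plus strand. On the minus strand they lie at chr11:83020811-83020910 for Slfn8 and chr11:82991831-82991930 for Slfn9. The RefSeq starts of Slfn1 and Slfn5 differ from the gene starts of the annotation used for the counts. The element core was found in Slfn5, 155 to 146 bases before the start, in Slfn8, 48 to 39 bases before it, and in Slfn9, 45 to 36 bases before it. Of 32851 promoters of the same length in the table, 2.98% held it on either strand. Slfn2 held the combined motif 59 to 50 bases before the start, where it overlaps the shared word, and 2.3% of promoters held it. No member held the interferon gamma element TTCNNNGAA, which 7.02% of promoters held.

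The shared word began 74 bases before the start in Slfn1, 73 in Slfn4 and 55 in Slfn2. It was picked after the longest words shared by pairs of these promoters were seen, and 20 of 32851 promoters held it on either strand (0.0609%). Slfn1 and Slfn4, the genes with the fewest counts outside the acute group, shared 15 bases around it, and Slfn8 and Slfn9 shared a word of 20 bases upstream of their element. Slfn3, which lies next to Slfn4 and was also higher in acute mice, held neither the shared word nor the element core, and the longest word it shared with Slfn4 had 9 bases. A match describes letters and is no evidence of a bound factor, and the mice were of another strain than the reference.

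Genes of the interferon pathway were followed beside the family. Of 10 genes that sense type I interferon, 6 were called higher in acute than in control mice and 1, Irf3, lower, against 23.7% and 20.0% of all genes. Irf7, which amplifies the interferon response, stood at 77.1 CPM in acute mice (log2 fold change 3.35 ± 0.35, adjusted p 5.12e-06) and Usp18, a feedback inhibitor of the receptor, at 27 CPM (2.12 ± 0.28, adjusted p 4.75e-06). The count called lower ran from 1 to 4 over the alternative settings. In chronic mice 1 of the 10, Stat2, was called higher, a share near the 9.57% of all genes, and the count was 0 to 2 over the alternative settings. Of 7 genes that sense interferon gamma, 3 were called higher in acute mice (Irf1, Jak2 and Socs1) and 1, the receptor gene Ifngr1, lower, a count that ran from 1 to 4 over the alternative settings. Irf1, a target and mediator of interferon gamma, averaged 29.2 ± 3.28 CPM in control mice, 204 ± 12.5 at the acute stage, 41.3 ± 4.16 at remission and 94.8 ± 30.8 at the chronic stage. It was called higher than in control mice in acute and chronic mice, with log2 fold changes of 2.80 ± 0.19 and 1.70 ± 0.19 (adjusted p 2.04e-09 and 5.02e-06).

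Of 20 interferon-induced antiviral and RNA-acting genes, 18 were called higher in acute mice and none lower, against 23.7% and 20.0% of all genes tested, with a median log2 fold change of 2.58. Oasl2, an antiviral gene of the oligoadenylate synthetase family, rose by 4.48 ± 0.28 in acute mice, by 1.82 ± 0.30 in remission and by 2.25 ± 0.29 in chronic mice (adjusted p 7.36e-09, 0.000887 and 7.25e-05). Eif2ak2, the kinase that halts translation on double-stranded RNA, rose by 1.85 ± 0.19 in acute and 1.12 ± 0.19 in chronic mice (adjusted p 2.01e-07 and 0.000381). In remission 3 of the 20 were called higher (Oasl2, Zbp1 and Oas1a) and in chronic mice 6 (those 3 with Oas2, Eif2ak2 and Adar), against 6.06% and 9.57% of all genes tested. The list summed to 1779, 1429 and 1150 CPM in acute replicates 1 to 3, the order also seen in Slfn1, Slfn4, Slfn5 and Slfn8 and in the monocyte markers.

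Since Schlafen genes are known as brakes on growth, 14 genes of quiescence and the cell cycle were followed, of which 13 were tested. In acute mice 5 were called higher and 1, Rb1, lower, against 23.7% and 20.0% of all genes tested, and the count called lower ran from 0 to 3 over the alternative settings. The cyclin-dependent kinase inhibitor gene Cdkn1a stood at 6.94 ± 2.72 CPM in control and 17.5 ± 3.99 in acute mice (log2 fold change 1.36 ± 0.29, adjusted p 0.000667), and it was lower than in control mice in remission, at 2.18 ± 0.287 CPM (-1.61 ± 0.35, adjusted p 0.00401). Without acute replicate 1 the count of higher genes was 3. The list's median log2 fold change was 0.54 in acute mice.

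The genes whose pattern over the 12 libraries was most like that of each member differed between members. They were ranked by Pearson's r of log2 CPM among 8310 genes averaging at least 5 CPM, as a description in which the acute libraries set most of the range. For Slfn5 the nearest was Helz2 (r = 0.993), an interferon-induced nuclear helicase gene, followed by Snx10, Arfgef1 and Parp14. For Slfn9 they were Sema6b (r = 0.976), Eif2ak2, Cndp2 and Csf2rb. Eif2ak2, like Slfn9, was called higher in chronic than in control mice, at 41.1 ± 10.3 against 18.8 ± 4.51 CPM. For Slfn2 they were Trafd1 (r = 0.978), Slc31a2, Zdhhc3 and the ETS factor gene Elf4.

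Slfn1 and Slfn4 were most like genes that were also near 0 outside acute mice or rose there. For Slfn1 these were Napsa (r = 0.991), Atp8b4, the kinase gene Lrrk2 and Emb, all at 0.741 CPM or less in every other group. For Slfn4 they were Dennd3 (r = 0.993), the glutathione reductase gene Gsr, Diaph1 and S100a6. For Slfn8 the nearest were Smn1 (r = 0.954), Parl, Samd9l and Traf6, and the lower r went with its smaller range over the libraries.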

How the data were processed

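RNA of the sorted cells was reverse transcribed with random primers and made into Nextera XT libraries that keep no strand, sequenced as single reads of 75 bases, per the labels' protocols. The submitters' processing notes name the build GRCm38 and the tools HISAT2, SAMtools 1.3.1, Picard 2.6.4 and HTSeq 0.6.1. HTSeq settings and annotation release are not given in the sources used here. The deposited values are raw read counts per gene. The 12 single files equalled their columns of the merged table. Of 48526 IDs, 48144 were named with GENCODE M21, and the 382 others held 0.02078% of counts. No 2 libraries of a group agreed within sampling noise (chi-square per degree of freedom 4.4 to 12.6).

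Genes passing filterByExpr (12545) were fitted in R 4.3.3 with edgeR 4.0.16 (robust quasi-likelihood, TMM, all 12 libraries), tested in 6 comparisons, and called at an adjusted p under 0.05. CPM used TMM sizes, SE was the log2 fold change over the root of F, and the fit was tested on simulated data. Floors are 3 counts over a group. The alternatives were other size factors, filters, tools (DESeq2 1.42.0, limma 3.58.1 voom), a fit to 2 groups, the digit in the titles as covariate, summed paralogs and each library left out. Levels per kilobase used the union of exons, and words of 75 bases in GENCODE M21 transcripts measured sharing between genes. Other named genes are the 4 nearest by correlation for each member, up to 4 genes of each list with the smallest p in acute mice, and genes that flank the cluster (up to 5 a side). Results of 2 genes are not reported here. Genes of counts of 5 or fewer were named after their values were seen. The members and lists were chosen with earlier results of these data known.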

Additional observations from a re-analysis of the deposited data

How the results depend on the processing

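The acute rise of Slfn1, Slfn2, Slfn4, Slfn5 and Slfn9 and the fall of all but Slfn4 and Slfn9 after it kept their direction and call in all 22 alternatives run. For Slfn1 and Slfn4, which passed the default filter only through the acute libraries, these calls are descriptive. With paralog counts summed, the value given for both Slfn8 and Slfn9 is that of their sum with Slfn10-ps. Slfn4 is there summed with Slfn3. That setting therefore holds no separate value for Slfn4, Slfn8 or Slfn9. Against control, 6 acute members stayed called except with library totals alone, where Slfn8 was at 0.19. In remission, the count called was 0 but 1 without the filter. In chronic mice it was 1, but 2 with library totals alone (Slfn8, at -0.55, and Slfn9) or in a fit to the groups compared (Slfn5 and Slfn9), 0 with paralog counts summed, and 0 to 1 as libraries were left out, 0 being without chronic replicate 3. Leaving out 1 library moved the acute log2 fold change of Slfn4 to 6.92 without control replicate 1, 10.48 without control replicate 2 and 7.01 without acute replicate 1. Over all alternatives the acute log2 fold change of Slfn1 ran from 8.99 to 11.12. Where paralogs were kept apart, that of Slfn4 ran from 6.92 to 10.48 and that of Slfn9 from 1.53 to 2.27. The sum of Slfn4 with Slfn3 gave 6.52, and the sum of Slfn9 with Slfn8 and Slfn10-ps gave 0.96. Leaving out 1 library moved the fall of Slfn1 to -8.37 without remission replicate 1 and -10.79 without chronic replicate 3. It moved the chronic fall of Slfn4 to -8.03 without acute replicate 1 and -10.54 without chronic replicate 3.

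Directions turned in 11 of 702 gene values, all but 1 of them in differences that were not called. The exception was the value given for Slfn9 in chronic mice with paralog counts summed, -0.01, which is that of its sum with Slfn8 and Slfn10-ps. In remission the same sum gave -0.03. Slfn2 in remission against control was -0.19 with library totals alone, -0.03 with limma-voom and -0.19 to 0.46 as libraries were left out, below 0 without control replicate 2, remission replicate 2 or remission replicate 3. Slfn8 in remission was 0.01 without remission replicate 1. Slfn8 between chronic and remission mice was 0.03 with paralog counts summed and -0.27 to 0.08 as libraries were left out, above 0 without remission replicate 3 or chronic replicate 2. The causes were not tested. The count of interferon-induced genes called higher ranged from 16 to 19 in acute, 4 to 7 in chronic and 1 to 6 in remission mice. Levels of Slfn1 and Slfn4 outside acute mice rest on 0 to 6 counts a group, so among those groups only the remission difference of Slfn1 without the filter was called (adjusted p 0.04). No paired analysis was possible because the replicate numbers only follow the order of the records and the title codes mark no shared mouse.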
